A study of Mus musculus with 15 samples.

Results

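Podoplanin-positive, BP3-negative (PDPN+BP3-) and podoplanin-negative (PDPN-) mesenchymal cells of mouse lymph nodes were compared on 6 of the 15 arrays of the series, 3 for each population. They were chosen by their titles, and 18718 genes were compared, each represented by the array feature with the highest mean among features that carry a single symbol. All mice were C57BL/6 and 2 weeks old, and none was described as treated or genetically altered. Brachial, axillary and inguinal nodes were pooled from 10 to 11 mice per experiment, digested with liberase TM and DNase I and sorted as PDGFRβ-positive cells; the PDPN- cells were in addition sorted as positive for Ly51, a marker that was not named for the PDPN+ cells. The 3 arrays of a population came from separate experiments, and a pool of mice stands behind each value, so the spread between arrays is that between pools and not between animals. Lymph node PDPN+BP3+ cells from the same kind of pools, and PDPN+BP3- and PDPN- cells of the thymus from pools of 3 mice, served as comparisons, also with 3 arrays each. The values are RMA signals from Affymetrix whole-transcript gene arrays on a log2 scale, on which 1 unit is a factor of 2 in signal.

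Podoplanin is a membrane glycoprotein of the fibroblastic reticular cells that form the scaffold of lymph nodes and there supply chemokines and survival factors to lymphocytes. BP3 is the product of Bst1, and marks some of these cells. Mesenchyme that lacks podoplanin but carries PDGFRβ is generally found around vessels, where pericytes and smooth muscle cells contract, respond to vasoactive hormones and receive Notch and PDGF signals from the endothelium. In a sorted bulk sample, a higher share of cells with a transcript and more transcript per cell cannot be told apart.

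The labels were first checked with genes of the sort antigens, which are a description because the cells were selected on them. Pdpn, which encodes podoplanin, was 8.23, 7.90 and 8.34 on the PDPN+BP3- arrays and 3.48, 3.40 and 3.34 on the PDPN- arrays. Enpep, which encodes Ly51, was 4.14, 3.36 and 3.73 against 7.63, 7.63 and 7.82. Both genes lay on the side that the labels give, with no overlap. Bst1 averaged 3.30 in PDPN+BP3- cells, 2.41 in PDPN- cells and 8.74 in PDPN+BP3+ cells. Pdgfrb, the receptor on which all populations were sorted, was 8.99, 9.03 and 8.79 in PDPN+BP3- cells and higher in PDPN- cells, at 10.53, 10.15 and 10.31. The collagen genes Col1a1, Col1a2 and Col3a1 and the proteoglycan gene Dcn, used as a check of mesenchyme, averaged 8.74 to 9.21 in PDPN- cells and 10.17 to 11.17 in PDPN+BP3- cells, so both populations carried them at high signal. The array medians of the 6 arrays lay between 3.78 and 3.85, and arrays of a population correlated across genes at 0.987 to 0.994 against 0.938 to 0.946 between the populations, where genes are not independent replicates. Of all 18718 genes, 2500 were higher in PDPN+BP3- cells (13.4%) and 1832 lower (9.79%) at an adjusted p of 0.05 in limma with Benjamini-Hochberg adjustment. The median difference of all genes was -0.01. The arrays of the 2 populations did not overlap for 6484 of the 18718 genes (34.6%), and statements of no overlap are to be read against this share. A difference of more than 4 was reached by 55 of the genes called higher and 29 of those called lower. Differences are given as PDPN+BP3- minus PDPN- with the standard error of the fit, and counts of gene lists are to be read against these shares. Signals below the median of the deposited table, 3.80, need not stand above background, and a difference with such a value on 1 side is reported as signal, with no fold of RNA.

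The genes with the largest excess in PDPN+BP3- cells encoded receptors, secreted matrix and enzymes. Agtr2, the angiotensin II receptor type 2, was 9.59, 10.14 and 9.90 in PDPN+BP3- cells and 2.36, 3.18 and 3.07 in PDPN- cells, a difference of 7.01 ± 0.21. Cldn1, a claudin of tight junctions, was 9.12, 9.0 and 8.90 against 2.42, 2.08 and 2.99 (6.51 ± 0.18). Both had been put forward as markers of this comparison with results known, and their differences are given without a test. Inmt, an indolamine methyltransferase, stood at 9.44, 8.89 and 8.95 against 2.81, 2.35 and 2.32 (6.60 ± 0.29, adjusted p 3.63e-11). Osr1, a zinc finger transcription factor of embryonic connective tissue, was 10.14, 10.02 and 9.94 against 4.93, 4.20 and 4.15 (5.61 ± 0.19, adjusted p 2.71e-12). All 3 PDPN- arrays lay far below the PDPN+BP3- arrays for each of these genes, and for Osr1 they were also above the table median. Lepr, the leptin receptor, was among the 20 largest excesses at 8.63, 8.55 and 8.71 against 4.10, 3.17 and 3.67 (4.98 ± 0.18). Adm, the vasodilator peptide adrenomedullin, stood at 9.0, 8.76 and 9.03 against 4.07, 3.67 and 3.97 (5.03 ± 0.17). The other genes of that set were the matrix protein Tgfbi, the dipeptidase Dpep1, the flavin monooxygenase Fmo2, the alarmin Il33, the PDGF receptor Pdgfra, Shisa3, the matrix genes Efemp1 and Mmp3, the zinc finger gene Zim1, Cd34, the sulfotransferase Sult5a1, the Wnt antagonist Sfrp2, the carboxypeptidase-like gene Cpxm1 and the fibroblast growth factor Fgf7, with differences of 4.90 to 5.63. Predicted genes, olfactory receptors, small RNAs and antigen receptor segments were left out of both sets of 20.

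The genes with the largest excess in PDPN- cells encoded a LIM-domain protein, receptors and signalling proteins among others. Fhl5, a LIM-domain coactivator of smooth muscle genes, was 3.11, 2.79 and 3.06 in PDPN+BP3- cells and 9.24, 9.07 and 9.37 in PDPN- cells, a difference of -6.24 ± 0.14. Ednrb, the endothelin receptor type B, was 3.53, 2.93 and 3.32 against 8.19, 8.41 and 8.44 (-5.09 ± 0.14). These genes too were put forward as markers, so their differences are a description. Fam162b was 2.81, 2.80 and 2.76 against 8.39, 8.71 and 8.60 (-5.78 ± 0.19, adjusted p 2.59e-12). Rgs4, an inhibitor of G protein signalling, was 3.48, 3.96 and 4.37 against 9.18, 9.46 and 9.64 (-5.49 ± 0.23, adjusted p 2.47e-11). No array of a population reached into the range of the other for these genes, as the choice of the 20 largest deficits required. Gja4, the vascular gap junction protein connexin 37, was 5.05, 4.92 and 4.95 against 9.40, 9.24 and 9.47 (-4.40 ± 0.11), and so was above the table median in both populations. Pparg, the nuclear receptor of lipid storage, stood at 3.14, 2.90 and 3.25 against 7.27, 7.59 and 7.39 (-4.32 ± 0.15). The other genes of the 20 largest deficits, at -5.30 to -4.26, were Prkg2, Nrarp, Stac, Map3k7cl, Tspan15, Chn1, Mrgprh, Esam, Adap2, Ephx3, H2-M9, Myom1, Casq2 and Slc38a11. H2-M9 belongs to a family of closely similar genes, so its signal may include that of relatives.

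**Figure D1:**
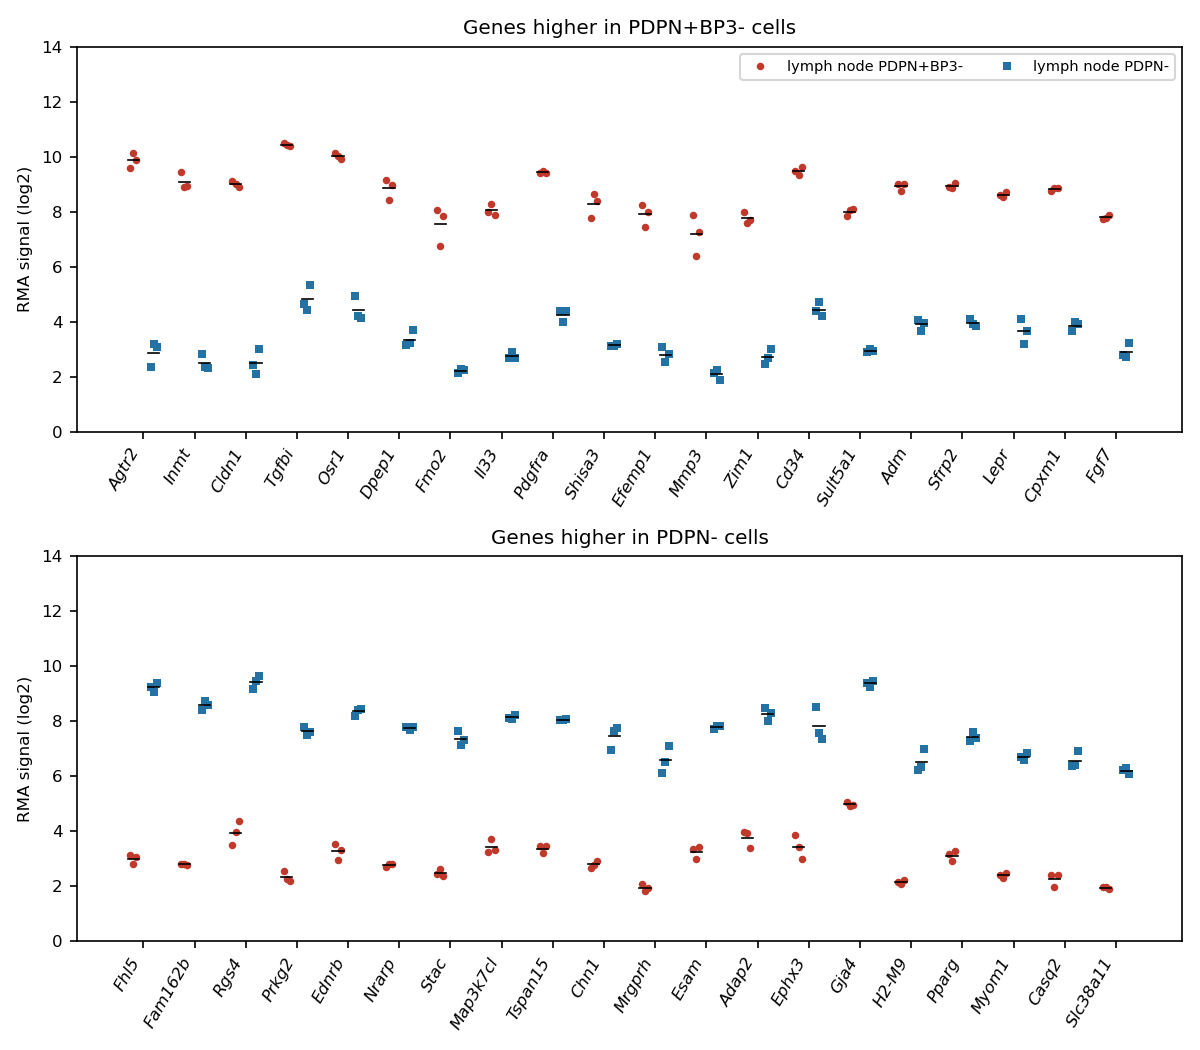
RMA signal (log2, vertical axis) of the 20 genes with the largest excess (upper panel) and the 20 with the largest deficit (lower panel) in lymph node PDPN+BP3- relative to PDPN- cells, in order of the difference. Points are single arrays, 3 per population, and black bars their means. In every gene shown the arrays of the populations do not overlap, a property the choice of genes required; Agtr2 averages 9.88 against 2.87 and Fhl5 2.99 against 9.23.

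Genes of the smooth muscle contractile apparatus were lower in PDPN+BP3- cells almost throughout, but by very unequal amounts. Of 20 measured, 18 were lower and 1 higher, with a median difference of -1.45. The smooth muscle myosin heavy chain Myh11 was 6.27, 6.5 and 5.79 against 10.24, 10.04 and 10.23 (-3.98 ± 0.16, adjusted p 1.30e-11). The calcium-store protein Casq2 (-4.29 ± 0.17), the calponin Cnn1 (-4.01 ± 0.21) and the enteric actin Actg2 (-3.10 ± 0.12) differed by similar amounts. Smooth muscle actin Acta2 was 9.39, 9.61 and 9.09 against 10.84, 10.80 and 10.78 (-1.44 ± 0.12), and the regulatory light chain Myl9 was 10.48, 10.51 and 10.17 against 11.09, 10.97 and 11.01 (-0.64 ± 0.12). For both genes the arrays did not overlap, yet PDPN+BP3- cells carried a signal far above the table median. The muscle intermediate filament gene Des averaged 8.83 and 9.12 and was not called (adjusted p 0.447). The call of Smtn, the 1 member that was higher (0.43 ± 0.13), was lost without any of 4 arrays taken singly.

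Transcription of this apparatus is driven by serum response factor with myocardin-family partners at CArG boxes, and the regulators themselves differed. Of 16 measured genes of this list 10 were lower and 3 higher, with a median of -0.54. Myocd, the smooth muscle coactivator myocardin, was 2.72, 2.60 and 2.66 against 6.14, 5.82 and 6.04 (-3.34 ± 0.13, adjusted p 9.99e-12). Mef2c, a MADS-box partner, was 5.31, 5.25 and 5.45 against 8.36, 8.08 and 8.08 (-2.84 ± 0.17), while Srf itself differed little (-0.54 ± 0.15, adjusted p 0.0168). Fhl1, another LIM-domain protein, was higher (1.06 ± 0.14, adjusted p 2.46e-05), and the related coactivator Mrtfb was not called (0.16, adjusted p 0.519). Of the myocardin family, Myocd alone was called lower. Fhl2 and Mrtfa, the other members called higher, lost that call without some arrays. Acta2, Myl9, Myl6 and Srf were chosen for description after their values were seen.

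RefSeq promoter windows of build GRCm38.p6, which reach from 250 bases before to 50 after a start site, were searched for CArG boxes. This palindromic motif has 2 C, a middle of 6 letters from A and T, and 2 G, so both strands give the same matches. An exact match was present for 2 of the 17 contractile genes with a window, Myl9 and Myl6 (11.8%), for 4 of 14 serum response factor genes, Srf, Fhl1, Fhl2 and Ldb3 (28.6%), and for 1.81% of the 27025 genes with a window. With 1 middle letter allowed off, the counts were 3 of 17 (17.6%), 8 of 14 (57.1%) and 11.3% of all genes. Myh11, Actg2 and Tagln had no window and could not be searched, so these counts do not describe them. The windows of Acta2 and Myl9, which were lower by unequal amounts, are shown 5′ to 3′ in the direction of transcription with these matches in capitals. That of Acta2 lies on the minus strand at chr19:34255324-34255623 and holds 2 matches with a letter off, starting at -84 and -34 relative to the start site. That of Myl9 lies on the plus strand at chr2:156775214-156775513 and holds an exact match at -161 and a match with a letter off at -99.
Acta2: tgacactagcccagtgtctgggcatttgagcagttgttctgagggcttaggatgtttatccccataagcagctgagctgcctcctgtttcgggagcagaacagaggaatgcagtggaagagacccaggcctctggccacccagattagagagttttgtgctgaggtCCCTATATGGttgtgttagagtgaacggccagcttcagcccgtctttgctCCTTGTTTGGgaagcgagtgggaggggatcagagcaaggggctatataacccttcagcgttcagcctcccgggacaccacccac
Myl9: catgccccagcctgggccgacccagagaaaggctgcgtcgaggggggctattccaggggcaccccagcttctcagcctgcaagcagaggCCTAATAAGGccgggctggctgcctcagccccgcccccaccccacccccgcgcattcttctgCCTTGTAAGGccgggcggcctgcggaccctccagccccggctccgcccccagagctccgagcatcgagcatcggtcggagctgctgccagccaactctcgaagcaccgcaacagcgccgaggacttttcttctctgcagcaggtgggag
A match is a description of these letters; the genes in the second list with a box were found among those higher (Fhl1, Fhl2) as well as lower (Srf, Ldb3).

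Markers of pericytes, the cells that wrap capillaries, had the lowest median difference of the 53 lists (-2.70), with 13 of 19 lower and 1 higher. Higd1b, a mitochondrial protein typical of pericytes, was 2.56, 2.53 and 2.39 against 6.42, 6.84 and 6.88 (-4.22 ± 0.12, adjusted p 4.66e-13). The ADP-ribosyltransferase Art3 was 3.84, 4.24 and 4.13 against 8.05, 8.35 and 8.40 (-4.20 ± 0.15). The cation channel Trpc6 (-3.86 ± 0.14) and Rgs5 (-2.72 ± 0.12) were also lower, although Rgs5 kept 8.01, 8.17 and 8.07 in PDPN+BP3- cells against 10.81, 10.77 and 10.84. Other genes often used for pericytes did not separate the populations: Vtn averaged 9.06 and 9.35 (adjusted p 0.130), Steap4 10.02 and 9.99 (adjusted p 0.926) and Ebf1 9.37 and 9.71 (adjusted p 0.0528). The aminopeptidase Anpep was higher in PDPN+BP3- cells (1.12 ± 0.13).

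Receptors through which vessels respond to hormones and transmitters were split between the populations. Of 26 measured, 9 were lower and 5 higher in PDPN+BP3- cells, with a median of -0.14. Beside Ednrb, the PDPN- cells had more of the neuropeptide Y receptor Npy1r, at 8.14, 7.91 and 8.32 against 5.72, 4.80 and 5.46 in PDPN+BP3- cells (-2.80 ± 0.24), and of the ATP-gated channel P2rx1 (-2.31 ± 0.15). Ramp2, which turns the calcitonin receptor-like receptor into an adrenomedullin receptor, was 7.45, 7.22 and 8.06 against 3.86, 4.66 and 3.97 (3.41 ± 0.25, adjusted p 2.15e-08). Its partner Calcrl averaged 6.79 and 7.18 and was not called. Ptger4, a prostaglandin E2 receptor, was higher in PDPN+BP3- cells (1.82 ± 0.16). Thus the peptide gene Adm and the receptor subunit Ramp2 were higher in the same sorted population, which does not place them in the same cells.

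In the renin-angiotensin list all 7 measured genes were called, 4 higher and 3 lower in PDPN+BP3- cells (median 1.12), 1 of them the sort antigen Enpep. Angiotensin II acts through a contractile type 1 receptor and an often opposing type 2 receptor. Agtr1a, the type 1 receptor, was 7.95, 7.75 and 7.93 in PDPN+BP3- cells and 10.34, 10.00 and 10.33 in PDPN- cells (-2.35 ± 0.14, adjusted p 1.78e-09), the reverse of Agtr2. Agt, the precursor angiotensinogen, was 3.47, 4.36 and 4.17 against 6.60, 6.98 and 6.74 (-2.77 ± 0.20). Enpep, which cleaves angiotensin II, was lower; its product Ly51 was used to sort the PDPN- cells, so its difference is a description. Ace, which forms angiotensin II, was 5.86, 4.79 and 5.06 against 2.96, 3.07 and 2.77 (2.30 ± 0.24), and the peptidases Mme (2.72 ± 0.12) and Anpep were higher too. Precursor and type 1 receptor were therefore higher in PDPN- cells, and converting enzyme and type 2 receptor in PDPN+BP3- cells.

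**Figure D2:**
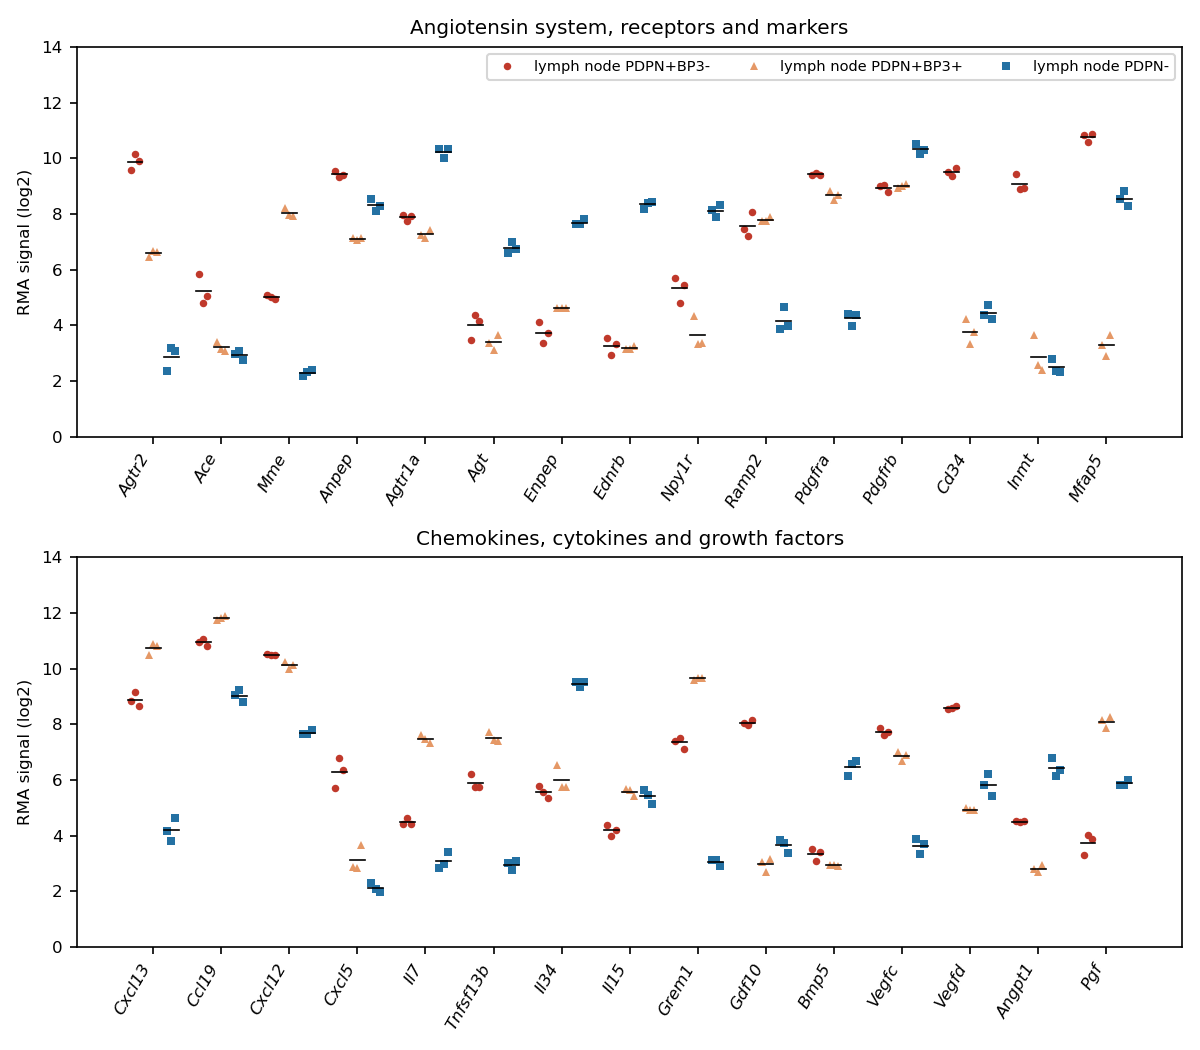
RMA signal (log2, vertical axis) of receptors, angiotensin system genes and markers (upper panel) and of chemokines, cytokines and growth factors (lower panel) on the 3 arrays each of lymph node PDPN+BP3-, PDPN+BP3+ and PDPN- cells; black bars are means. Agtr2 averages 9.88, 6.60 and 2.87 in the 3 populations and Agtr1a 7.88, 7.27 and 10.22, while Il7 averages 4.48, 7.46 and 3.08.

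Intracellular steps of relaxation and excitation were mostly higher in PDPN- cells. Of 14 genes of cGMP synthesis, degradation and targets, 11 were lower in PDPN+BP3- cells and 2 higher (median -1.46). The cGMP-dependent kinases Prkg2, at 2.53, 2.23 and 2.19 against 7.77, 7.48 and 7.61 (-5.30 ± 0.18), and Prkg1 (-3.60 ± 0.17) were lower, as were the phosphodiesterases Pde1a (-1.80 ± 0.12) and Pde2a (-2.36 ± 0.19). Npr2, a natriuretic peptide receptor that makes cGMP, was higher, at 6.08, 6.07 and 5.90 against 3.09, 3.31 and 3.04 (2.87 ± 0.13). Of 19 ion channel genes 11 were lower and 2 higher (median -1.02). The calcium release channel Ryr2 (-2.73 ± 0.13), the calcium-permeable channel Trpv2 (-2.98 ± 0.16) and the potassium channel Kcna5 (-2.01 ± 0.19) were among the lower, and Kcnma1, a calcium-activated potassium channel, was higher (1.17 ± 0.13). The chloride channel Ano1 averaged 8.61 and 8.70 and was not called. Of 16 regulators of G protein signalling and G protein subunits 9 were lower and 1, Rgs17 (3.23 ± 0.15), was higher (median -0.49).

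Notch receptors and targets were lower in part. Of 16 genes 8 were lower and 4 higher, with a median of -0.40; the 4 fell to 2 without PDPN- replicate 2 or 3 or without PDPN+BP3- replicate 1 or 2. Nrarp, a feedback inhibitor switched on by Notch, was 2.68, 2.81 and 2.78 against 7.78, 7.67 and 7.78 (-4.99 ± 0.12, adjusted p 1.25e-13). The target Hey2 was 3.27, 2.67 and 2.79 against 5.29, 5.68 and 6.07 (-2.77 ± 0.20), the receptor Notch3 7.67, 7.86 and 7.05 against 10.01, 9.62 and 9.76 (-2.27 ± 0.19), and Hey1 was lower as well (-1.30 ± 0.12). Hes1, a target of Notch and other signals, averaged 7.33 and 7.72 and was not called (adjusted p 0.176). Rbpj, the DNA-binding partner of Notch (0.93 ± 0.14), and the glycosyltransferase Lfng (1.94 ± 0.33) were higher. The word GTGGGAA, which the Rbpj protein recognises, was searched on both strands of the promoter windows. It was present for Hey2 and Lfng, 2 of 12 Notch list genes with a window (16.7%), and for 7.25% of all genes; Nrarp had a window without it, and Hey1 and Heyl had none in the table. The Hey2 window, on the minus strand at chr10:30842734-30843033, is shown 5′ to 3′ because it is that of a called target; capitals mark the 2 matches, of which the first is on the opposite strand, starting at -207 and -4 relative to the start site.
Hey2: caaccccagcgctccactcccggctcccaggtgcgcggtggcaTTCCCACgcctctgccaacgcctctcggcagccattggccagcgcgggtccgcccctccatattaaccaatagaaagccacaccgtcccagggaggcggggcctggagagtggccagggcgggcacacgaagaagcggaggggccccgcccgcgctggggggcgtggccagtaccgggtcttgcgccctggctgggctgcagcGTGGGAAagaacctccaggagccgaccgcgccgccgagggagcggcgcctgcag
Lfng and Hey2, which both hold the word, differed in opposite directions.

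PDGF receptors marked the populations from both sides. Pdgfra was 9.42, 9.47 and 9.42 in PDPN+BP3- cells and 4.40, 3.98 and 4.38 in PDPN- cells (5.18 ± 0.14, adjusted p 3.66e-13), while Pdgfrb, though part of the sort, was higher in PDPN- cells. Of the 7 genes of this list 5 were lower and 2 higher (median -1.06). The ligands Pdgfa (-1.14 ± 0.17), Pdgfb (-1.44 ± 0.18) and Pdgfc (-1.06 ± 0.18) were lower in PDPN+BP3- cells. Both receptor genes were far above the table median in PDPN+BP3- cells, and only Pdgfrb in PDPN- cells.

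In contrast, markers of adventitial fibroblasts, the cells of the outer vessel wall and of connective tissue septa, had higher signal in PDPN+BP3- cells for 17 of 21 genes and lower for 1, Thy1, whose call was lost without each of 3 arrays; the median was 2.54. Cd34, a sialomucin, was 9.50, 9.35 and 9.64 against 4.39, 4.72 and 4.22 (5.05 ± 0.19, adjusted p 6.01e-12). Igfbp6 was 8.62, 8.0 and 8.48 against 4.29, 4.34 and 4.25 (4.07 ± 0.16), and Il33, a cytokine stored in stromal nuclei, 8.0, 8.28 and 7.90 against 2.67, 2.89 and 2.68 (5.31 ± 0.12). Pi16, a secreted marker of fibroblasts near vessels, was 6.14, 4.50 and 4.82 against 2.16, 2.47 and 2.12 (2.90 ± 0.28), so replicate 1 was the highest of its group. Pi16 was chosen after its values were seen. Cd248, a marker of perivascular stroma, averaged 9.37 and 9.26 and was not called (adjusted p 0.690).

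**Figure D3:**
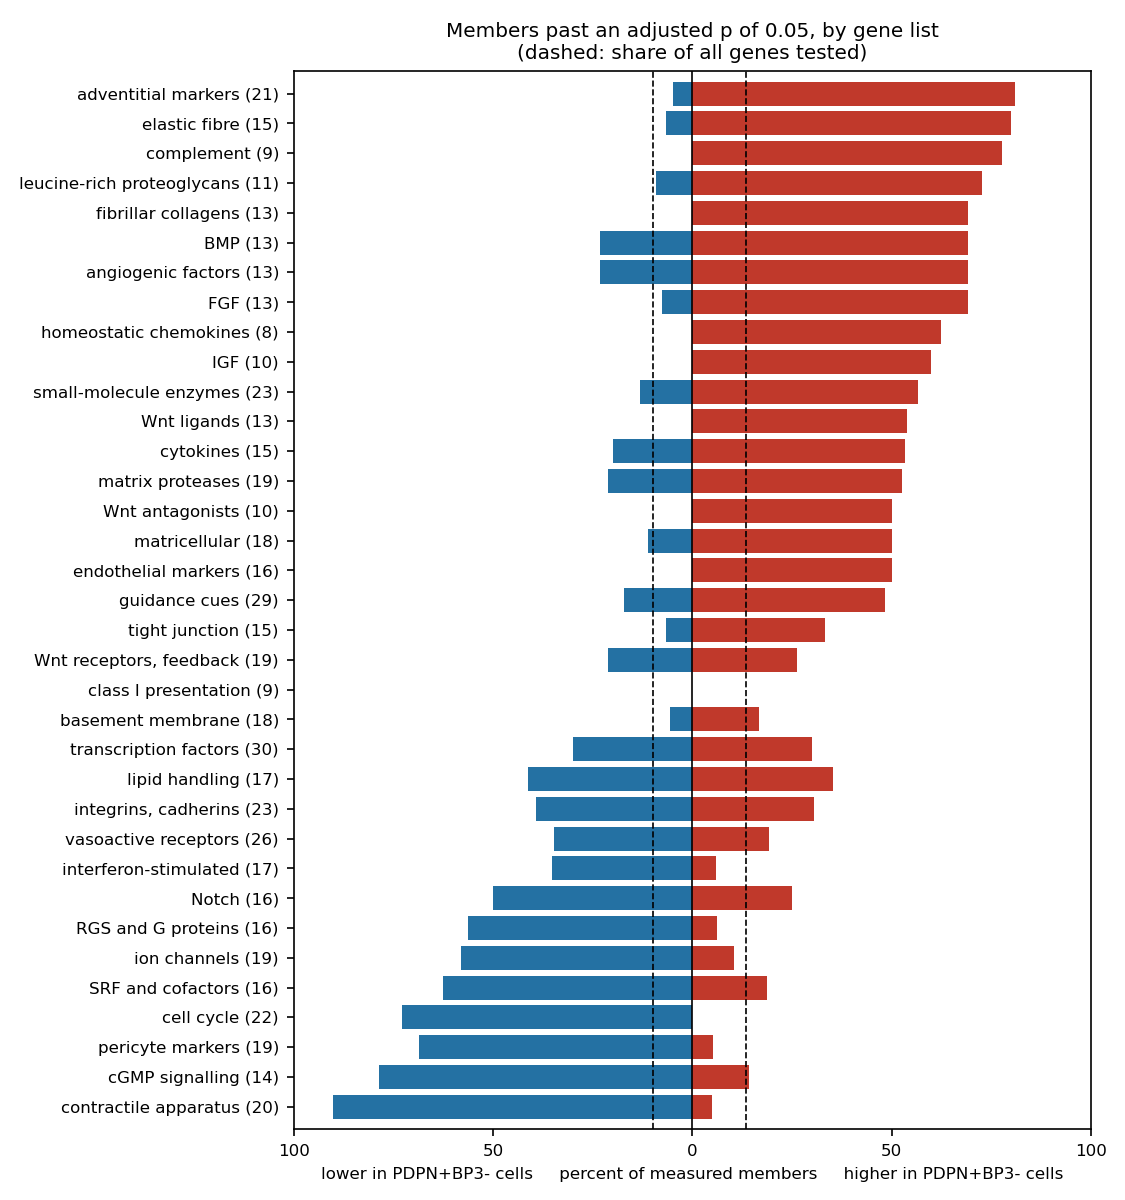
Share of the measured members of 35 gene lists (number measured in brackets) that were higher (red, to the right) or lower (blue, to the left) in lymph node PDPN+BP3- than in PDPN- cells at an adjusted p of 0.05 in limma; the horizontal axis is in percent of measured members. Dashed lines give the shares of all 18718 genes, 13.4% higher and 9.79% lower. Contractile genes lie at one end, with 18 of 20 lower, and adventitial markers at the other, with 17 of 21 higher. The 35 were picked by hand from the 53 lists, with no set rule. Those left out include immediate early genes, with 2 of 16 higher and none lower, and renin-angiotensin genes, with all 7 called.

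Interstitial matrix was higher in PDPN+BP3- cells and basement membrane was not. Of 13 fibril-forming collagens and associated chains 9 were higher (median 0.92), including Col14a1 (2.51 ± 0.15) and Col1a2, at 10.38, 10.30 and 10.25 against 9.06, 8.76 and 8.69 (1.47 ± 0.11). The collagen VI chains Col6a1, Col6a2 and Col6a3 differed by -0.18 to 0.06 and were not called. Of 15 elastic fibre genes 12 were higher and 1 lower (median 2.18). Fbln1 was 8.42, 8.13 and 8.29 against 4.0, 4.18 and 3.71 (4.32 ± 0.15), with Fbln2 (4.42 ± 0.16), Fbln5 (4.50 ± 0.19) and Efemp1 (5.10 ± 0.22) alongside. The 1 lower gene was that of elastin itself: Eln was 7.61, 7.11 and 7.23 against 7.75, 7.93 and 8.17 (-0.63 ± 0.14, adjusted p 0.00222). The fibulins that organise elastic fibres and elastin, their core, were therefore higher in different populations.

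Of 11 small leucine-rich proteoglycans 8 were higher and 1 lower (median 1.01). Ogn, osteoglycin, was 9.52, 9.47 and 9.39 against 4.98, 4.51 and 4.65 (4.75 ± 0.16), Lum followed at 3.41 ± 0.27, and Aspn, asporin, was the lower one at 8.96, 9.08 and 9.33 against 10.14, 10.19 and 10.39 (-1.12 ± 0.13). Of 18 matricellular genes 9 were higher and 2 lower (median 0.48). Among them Tgfbi was 10.52, 10.42 and 10.38 against 4.66, 4.44 and 5.32 (5.63 ± 0.17), whereas Sparcl1 was 9.52, 8.87 and 9.16 against 10.92, 10.68 and 10.90 (-1.65 ± 0.14) and Sparc averaged 11.22 and 11.25. Of 19 matrix proteases and inhibitors 10 were higher and 4 lower (median 0.50). Mmp3, stromelysin, was 7.88, 6.40 and 7.26 against 2.15, 2.23 and 1.89 (5.09 ± 0.28), Adamts5 was higher (3.71 ± 0.19), and the related aggrecanase gene Adamts4 lower (-2.34 ± 0.20). Timp3 (-1.26 ± 0.17) and Timp4 (-1.28 ± 0.15), inhibitors of these proteases, were lower, and Timp2 was higher (1.24 ± 0.12). Of 18 basement membrane genes 3 were higher and 1 lower (median -0.03), a share near that of all genes; the call of Lamc1, the lower one, was lost under 7 of its alternatives.

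Secreted regulators of Wnt and BMP signalling were concentrated in PDPN+BP3- cells. Of 10 secreted Wnt inhibitors 5 were higher and none lower (median 0.87), namely Sfrp1, Sfrp2, Sfrp4, Dkk2 and Dkk3. Sfrp1 was 7.64, 7.57 and 7.44 against 3.23, 2.84 and 3.15 (4.48 ± 0.15). Ligands were higher too, in 7 of 13 cases (median 0.48): the non-canonical ligand Wnt5a was 7.04, 6.87 and 6.91 against 3.54, 3.52 and 3.84 (3.31 ± 0.17), and the R-spondins Rspo1 (2.44 ± 0.22) and Rspo3 (2.55 ± 0.17), which strengthen Wnt signals, were higher. Of 19 receptors and feedback targets 5 were higher and 4 lower (median 0.03); the 5 became 3 without PDPN+BP3- replicate 2. Axin2, a general target of the pathway, averaged 5.08 and 5.23 and was not called (adjusted p 0.368). Fzd1 (2.31 ± 0.14) and Fzd2 (2.55 ± 0.14) were higher and Fzd4 (-0.72 ± 0.13) was lower. Ligands and inhibitors were thus higher in the same sorted population, while the feedback genes showed no common direction.

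Of 13 BMP ligands and antagonists 9 were higher and 3 lower (median 0.72). Grem1, a BMP antagonist of reticular cells, was 7.40, 7.52 and 7.12 against 3.13, 3.11 and 2.91 (4.30 ± 0.12, adjusted p 4.66e-13). The antagonist Chrdl1 was 9.65, 9.28 and 9.54 against 6.02, 5.57 and 4.89 (4.0 ± 0.21), and the ligands Gdf10 (4.41 ± 0.14) and Bmp3 (2.90 ± 0.17) were higher. Bmp5 was 3.50, 3.09 and 3.41 against 6.13, 6.57 and 6.67 (-3.12 ± 0.14) and Bmp2 was also lower (-1.92 ± 0.23), so the lists' members divided by gene and not by role alone. Of 8 TGF-beta ligands and receptors 1 was higher and 2 lower (median -0.22): Tgfbr3 stood at 0.88 ± 0.13, Inhba at -1.35 ± 0.15 and Tgfb2 at -0.77 ± 0.15, while Tgfb1 averaged 6.45 and 6.65.

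Growth factors for epithelium, endothelium and stroma were more often higher than lower in PDPN+BP3- cells. Of 13 FGF ligands and receptors 9 were higher and 1 lower (median 0.64). Fgf7 was 7.75, 7.79 and 7.89 against 2.77, 2.72 and 3.24 (4.90 ± 0.25), Fgf10 6.01, 5.74 and 6.07 against 2.13, 2.01 and 2.09 (3.86 ± 0.11), and Fgf1 was the lower gene (-1.08 ± 0.13). Of 10 insulin-like growth factor genes 6 were higher and none lower (median 0.86), among them Igf1 at 8.98, 8.84 and 8.55 against 5.09, 5.25 and 4.73 (3.77 ± 0.17) and the binding protein Igfbp3 (2.74 ± 0.16). The vessel factors differed in both directions. Vegfc, which acts on lymphatic vessels, was 7.85, 7.61 and 7.71 against 3.86, 3.33 and 3.71 (4.09 ± 0.15), and Vegfd (2.78 ± 0.16), Vegfa (2.56 ± 0.13) and Ptn (2.74 ± 0.14) were higher. The vessel-stabilising ligand Angpt1 was 4.51, 4.48 and 4.52 against 6.78, 6.14 and 6.37 (-1.93 ± 0.16), and placental growth factor Pgf was also lower (-2.15 ± 0.21). In all 9 of 13 angiogenic factors were higher and 3 lower (median 1.69).

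Chemokines that organise lymphocytes were higher in PDPN+BP3- cells, and inflammatory chemokines mostly did not pass. Of 8 homeostatic chemokines and atypical receptors 5 were higher and none lower (median 1.33). Cxcl12 was 10.53, 10.50 and 10.47 against 7.63, 7.64 and 7.80 (2.81 ± 0.14, adjusted p 2.96e-10), and Cxcl13, the B cell attractant, 8.85, 9.16 and 8.64 against 4.17, 3.81 and 4.62 (4.68 ± 0.23). Ccl19, a ligand of the homing receptor CCR7, was high in both populations, at 10.97, 11.05 and 10.82 against 9.04, 9.24 and 8.80 (1.92 ± 0.12). Of 14 inflammatory chemokines 4 were higher (median -0.00): the neutrophil attractant Cxcl5 was 5.71, 6.77 and 6.37 against 2.31, 2.07 and 1.96 (4.17 ± 0.23), and Ccl7 (2.46 ± 0.23), Ccl8 (1.01 ± 0.22) and Ccl11 (1.06 ± 0.10) followed. Ccl2 averaged 9.91 and 9.87 and Cxcl1 10.47 and 10.67, and neither was called.

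Cytokines for leukocytes were divided, with 8 of 15 higher and 3 lower (median 1.08). Il34, a ligand of the CSF1 receptor, was 5.79, 5.58 and 5.36 in PDPN+BP3- cells and 9.50, 9.34 and 9.52 in PDPN- cells (-3.88 ± 0.18, adjusted p 7.32e-11). Csf1, the other ligand of that receptor, went the other way, at 8.37, 8.30 and 8.28 against 7.34, 7.18 and 7.19 (1.08 ± 0.11). The B cell survival factor Tnfsf13b was higher at 6.22, 5.73 and 5.74 against 3.02, 2.78 and 3.09 (2.93 ± 0.16), as was Flt3l (1.53 ± 0.12), while Il15 (-1.21 ± 0.16) and Kitl (-1.08 ± 0.15) were lower. The T cell survival factor Il7 was 4.41, 4.63 and 4.41 against 2.83, 2.99 and 3.42 (1.40 ± 0.17). Of 12 lymphotoxin and TNF receptor genes and NF-κB subunits 4 were higher and 3 lower (median -0.08). Tnfrsf1b, a TNF receptor, was 6.10, 5.87 and 5.42 against 2.58, 2.65 and 2.60 (3.19 ± 0.19), Ltbr stood at 0.69 ± 0.13, and the calls of Nfkb2, Relb, Nfkbia and Traf2 were each lost under some alternatives. Of 9 complement genes 7 were higher (median 1.12), among them Clu (2.91 ± 0.22), C2 (1.53 ± 0.14) and Cfb (1.31 ± 0.14). Of 11 adhesion ligands for leukocytes 3 were higher (median 0.32), including Vcam1 at 8.75, 9.10 and 9.0 against 8.08, 8.0 and 7.95 (0.94 ± 0.13).

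Of 23 enzymes that handle small molecules 13 were higher and 3 lower (median 0.72). Cyp1b1, a monooxygenase of steroids and retinoids, was 9.39, 9.46 and 9.73 against 5.47, 5.40 and 5.47 (4.08 ± 0.14), and Fmo2 was 8.07, 6.77 and 7.85 against 2.13, 2.28 and 2.24 (5.35 ± 0.27). The epoxide hydrolase Ephx3 was lower, at 3.85, 3.40 and 2.97 against 8.51, 7.58 and 7.34 (-4.40 ± 0.26). Of 15 retinoid genes 7 were higher and 1 lower (median 0.23), led by the binding protein Crabp1 (2.59 ± 0.26), and 4 were higher when genes of low signal were filtered out. The retinaldehyde dehydrogenases Aldh1a1 (1.20 ± 0.24), Aldh1a2 (0.76 ± 0.18) and Aldh1a3 (0.83 ± 0.17) were called at low signals, with means of 3.04 to 4.49 in PDPN+BP3- cells. Of 8 prostanoid genes 3 were higher and 1 lower (median 0.08): Hpgd, which inactivates prostaglandins, was 6.88, 7.21 and 6.71 against 3.34, 2.90 and 3.59 (3.66 ± 0.24), and cyclooxygenase-2, Ptgs2, was higher by 1.09 ± 0.21. The phospholipase Pla1a was the lower one (-4.06 ± 0.18).

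Lipid genes did not move as a block, with 6 of 17 higher and 7 lower (median -0.12). Pparg, with its targets Fabp4, at 5.62, 5.13 and 5.61 against 8.98, 9.17 and 9.30 (-3.70 ± 0.25), and Cd36, at 2.86, 3.63 and 3.92 against 6.35, 7.43 and 7.73 (-3.70 ± 0.30), were lower in PDPN+BP3- cells. The lipase Lpl was 10.64, 10.51 and 10.50 against 7.59, 7.04 and 7.47 (3.18 ± 0.15), and Apoe was 11.63, 11.61 and 11.46 against 9.80, 8.96 and 9.08 (2.29 ± 0.20). Adipoq, the adipocyte hormone adiponectin, averaged 2.10 and 2.23 and was at the low end of the table in both. Pparg, Fabp4 and Cd36 were thus higher in PDPN- cells, and Lpl and Apoe in PDPN+BP3- cells.

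Transcription factors of regional mesenchyme were likewise divided, 9 of 30 higher and 9 lower (median -0.13). Beside Osr1, Twist2 was 7.83, 7.91 and 7.85 against 5.49, 5.60 and 5.43 (2.36 ± 0.22), and Foxp2 (1.61 ± 0.17) and Prrx2 (2.13 ± 0.24) were higher. Tbx2 was 4.23, 4.31 and 4.0 against 8.28, 8.17 and 7.91 (-3.94 ± 0.22), Tbx3 was 5.04, 4.97 and 4.77 against 7.32, 7.19 and 7.09 (-2.27 ± 0.13), and Meox1 (-2.62 ± 0.18) and Ebf2 (-1.18 ± 0.14) were lower. Nr2f2 averaged 9.17 and 9.61 and Prrx1 9.72 and 9.46, both without a call.

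Cues and receptors for cell position also differed. Of 29 guidance genes 14 were higher and 5 lower (median 0.44). Slit3, a secreted repellent, was 10.31, 10.19 and 10.11 against 8.41, 8.05 and 8.07 (2.03 ± 0.14), and Sema3c (3.50 ± 0.20), Ntn1 (2.10 ± 0.14) and Epha3 (2.96 ± 0.20) were higher. The ephrin Efnb2, a label of arterial vessels, was 4.73, 4.91 and 4.60 against 6.34, 6.32 and 6.5 (-1.64 ± 0.14), and Sema6d was also lower (-1.40 ± 0.16). Of 23 integrins and cadherins 7 were higher and 9 lower (median -0.19). The laminin receptor subunits Itga7, at 3.71, 4.08 and 4.13 against 7.54, 7.73 and 7.85 (-3.73 ± 0.15), and Itga6 (-2.98 ± 0.10), with Itga4 (-3.36 ± 0.12) and Itga10 (-2.50 ± 0.12), were lower. The collagen receptor subunit Itga11 (2.63 ± 0.20) and the mesenchymal cadherin Cdh11 (2.71 ± 0.18) were higher. Of 15 tight junction genes 5 were higher and 1 lower (median 0.03), and without PDPN- replicate 2 or 3 or PDPN+BP3- replicate 1 only 3 were higher; beside Cldn1, Cldn10 was 5.02, 5.08 and 5.19 against 3.31, 2.77 and 2.63 (2.19 ± 0.17), while occludin, Ocln, averaged 1.93 and 1.94.

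Cell cycle genes were lower in PDPN+BP3- cells in 16 of 22 cases and higher in none (median -0.93). Bub1, a mitotic kinase, was 2.66, 2.73 and 2.50 against 4.18, 4.41 and 4.75 (-1.82 ± 0.20), and Mki67 4.49, 5.12 and 4.46 against 5.98, 6.54 and 6.26 (-1.57 ± 0.22). Of 17 interferon-stimulated genes 6 were lower and 1 higher (median -0.36). Isg15 was 5.58, 5.43 and 5.48 against 6.71, 6.72 and 6.73 (-1.22 ± 0.13), and Usp18 was the higher one (0.94 ± 0.17). None of 9 class I antigen presentation genes was called (median -0.23). Of 16 immediate early genes, which respond to cell handling, 2 were higher (median 0.01); Fos averaged 10.85 and 10.83, and Jun 10.47 and 10.32, near the top of the table in both populations.

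Markers of other cells were then examined, since a sort can carry them along. Of 16 endothelial genes 8 were higher in PDPN+BP3- cells and none lower (median 0.45), and 4 were higher without PDPN- replicate 3. Their mean signal was 4.30 to 4.62 on the PDPN+BP3- arrays and 3.59 to 4.04 on the PDPN- arrays. Tek was 5.28, 4.78 and 5.36 against 2.53, 2.22 and 2.53, and the cadherin Cdh5 5.32, 5.22 and 5.53 against 3.52, 3.40 and 2.70, whereas Kdr (2.86 and 2.48), Flt1 (3.12 and 3.18) and Sox17 (2.15 and 2.25) were below the table median in both. Glycam1, a product of high endothelial venules, was 10.07, 9.56 and 10.00 in PDPN+BP3- cells and 8.85, 9.43 and 3.86 in PDPN- cells (2.50 ± 0.91, adjusted p 0.0612), so 1 PDPN- array stood far below the other two. The part of endothelial RNA in the differences above was not tested. The myeloid list gave 3 of 12 higher and 1 lower (Cd68), the glial list 1 of 5 (S100b, 2.05 ± 0.18), the B cell list 1 of 9 (Cd74), the lymphatic endothelial list 1 of 6 (Mmrn1), the T cell list 1 of 10 lower (Thy1), and the epithelial, adipocyte and red cell lists none of 10, 6 and 2. Some defining genes of these cells were below the table median in both populations. The leukocyte gene Ptprc averaged 3.02 and 3.00, Cd3e 3.36 and 3.31 and Cd79a 2.33 and 2.17. Adgre1 averaged 1.85 and 1.79, and the Schwann cell factor Sox10 2.81 and 2.86. The higher myeloid genes were Cd14 (2.69 ± 0.25), Tyrobp (0.80 ± 0.18) and Lyz2, whose call was lost without some arrays.

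Whether the lymph node difference departs from that of the thymus was tested as the lymph node difference minus the thymus difference. No array is shared between the tissues, but the test reuses the lymph node arrays compared above. By this test 1623 genes were higher (8.67%) and 758 lower (4.05%), so that 68.2% of calls were higher. After cyclic loess normalization 862 genes were higher and 1215 lower, a share of 41.5%. Replicate 1 of thymus PDPN+BP3- had the lowest array median of the series, 3.58, and leaving it out gave 1146 and 918, a share of 55.5%. The balance of directions is therefore not a stable result. The 16 genes named for this difference were chosen as called in this test and in the lymph node comparison, so these calls are not independent. They stayed called under all 18 alternatives, which use the same arrays. Cldn1 averaged 9.01 and 2.50 in the lymph node and 2.89 and 2.31 in the thymus, where the small excess was also called (5.93 ± 0.25). As a marker put forward on the lymph node values, it is given here as a description. Lepr was 8.63 against 3.65 in lymph node and 5.80 against 6.23 in thymus (5.41 ± 0.26). Cxcl12 reversed, at 10.50 against 7.69 in lymph node and 7.31 against 8.82 in thymus (4.32 ± 0.20, adjusted p 1.49e-09). Ddit4l, an inhibitor of mTOR signalling, reversed as well (5.90 ± 0.38), and Gabrg3 (4.20 ± 0.28), a GABA receptor subunit, and Gdpd2 (4.15 ± 0.20) were called in lymph node and not in thymus. Angpt2 averaged 8.13 and 8.70 in lymph node and 3.37 and 8.47 in thymus (4.52 ± 0.25); its small lymph node difference lost its call without each of 4 arrays. S100a8 was 5.33, 6.71 and 6.92 against 2.17, 1.90 and 2.52 in lymph node, with no overlap. In the thymus S100a8 was 2.61, 2.44 and 5.61 against 3.34, 3.92 and 3.70, so 1 PDPN+BP3- array stood far above the other two. The S100a8 difference between the tissues was 4.22 ± 0.85 (adjusted p 0.00319). S100a9, its partner in neutrophils, which was chosen after its values were seen, was 5.20, 6.36 and 6.23 against 2.93, 3.03 and 3.09 in lymph node and 2.59, 3.02 and 4.43 against 3.18, 3.07 and 3.12 in thymus. The leukocyte gene Ptprc averaged 3.02 and 3.00, below the table median, and the part of neutrophil RNA in these differences was not tested.

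Among genes lower by the same test, Meox1, a homeobox factor, was 5.11 against 7.74 in lymph node and 7.29 against 3.17 in thymus (-6.74 ± 0.26, adjusted p 2.55e-10), the largest difference of either sign among named genes. Cpxm2 reversed too, at 2.36 against 5.11 in lymph node and 7.58 against 4.23 in thymus (-6.11 ± 0.33). Fam162b (-5.73 ± 0.27) averaged 2.12 and 2.16 in the thymus, and Prkg2 (-5.93 ± 0.25) was slightly higher in thymus PDPN+BP3- cells, at 4.87 against 4.24. Pla1a was high in both thymus populations, 7.69 and 7.35, and in lymph node only in PDPN- cells (-4.39 ± 0.25). Serpina1b, one of several near-identical antitrypsin genes whose signals may mix, was at -4.23 ± 0.54. Fndc1 averaged 8.09 and 7.41 in lymph node and 9.51 and 3.15 in thymus (-5.69 ± 0.27), and Masp1, a complement lectin-pathway protease, 2.73 and 2.32 against 7.03 and 2.28 (-4.35 ± 0.16); the small lymph node differences of both lost their call under some alternatives. By list, the lymph node difference was lower than that of the thymus for 12 of 21 adventitial markers and higher for none. Their median differences were 2.54 in lymph node and 4.83 in thymus. The lymph node difference was higher for 13 of 19 pericyte markers and lower for 1, Ndufa4l2. Their medians were -2.70 in lymph node and -3.15 in thymus, so by median the lymph node had the smaller deficit. These list counts were not repeated after cyclic loess normalization, which changed the balance of directions. Fhl5 (-6.24 in lymph node and -6.66 in thymus), Nrarp and Stac gave no call for a difference between the tissues.

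**Figure D4:**
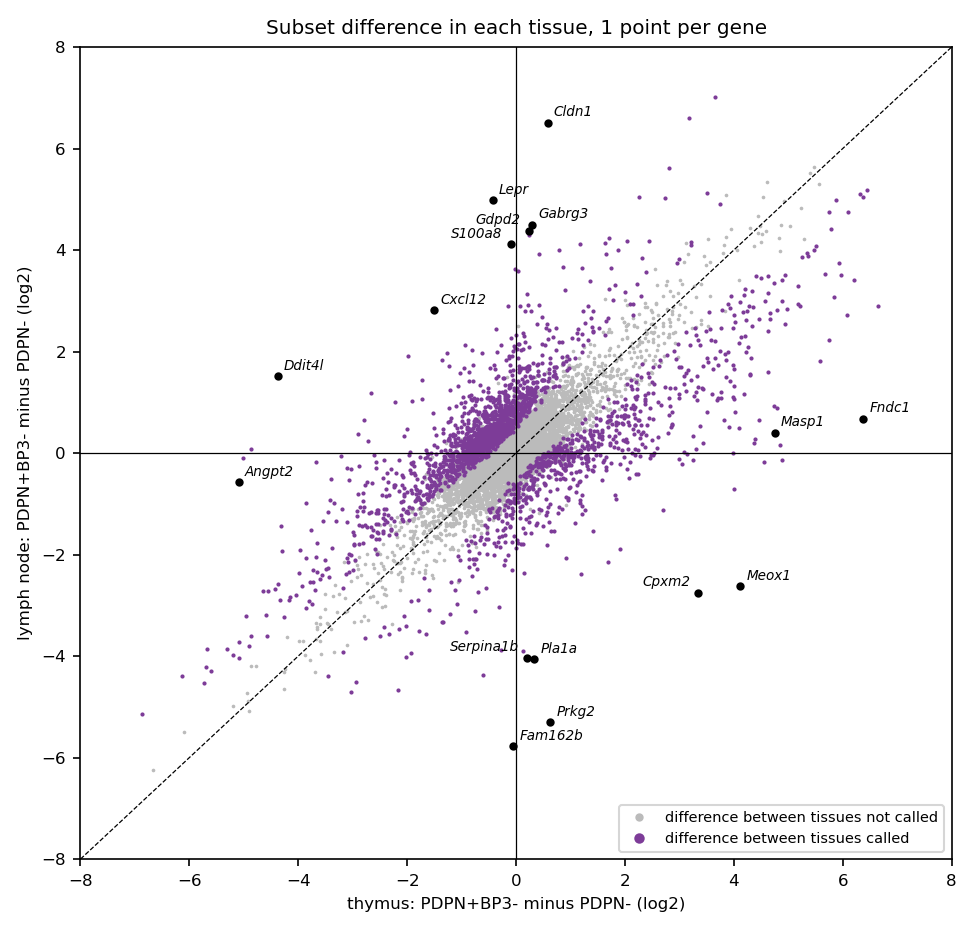
Difference between PDPN+BP3- and PDPN- cells (log2) in thymus (horizontal axis) and lymph node (vertical axis) for all 18718 genes; each population has 3 arrays, and the dashed line marks equal differences. Purple points were called for a difference between the tissues and grey points were not. The 16 labelled genes have the largest such differences of each sign among those also called in the lymph node, with the naming exclusions, from Cldn1 (6.51 in lymph node, 0.58 in thymus) to Meox1 (-2.62 and 4.12).

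The other podoplanin-positive population of the lymph node, PDPN+BP3+, was set against the PDPN+BP3- cells to see which of their genes are shared. The comparison uses the same PDPN+BP3- arrays as the one with PDPN- cells, so calls in both are not independent. It gave 1449 genes higher (7.74%) and 1589 lower (8.49%) in PDPN+BP3- cells. Of the 2500 genes higher than in PDPN- cells, 851 were also higher than in PDPN+BP3+ cells, 286 were lower and 1363 were not called. Inmt averaged 9.09 in PDPN+BP3- cells and 2.88 in PDPN+BP3+ cells (6.21 ± 0.29), Efemp1 7.91 and 2.39 (5.52 ± 0.22), Zim1 7.77 and 2.29 (5.48 ± 0.17) and Cd34 9.50 and 3.77 (5.72 ± 0.19). Agtr2 was intermediate in PDPN+BP3+ cells, at 6.60 (3.28 ± 0.21). Cldn1 averaged 8.67 there and Cxcl12 10.11, and neither was called between the PDPN+ populations. Il33 (-1.31 ± 0.12), Cxcl13 (-1.84 ± 0.23), Grem1 (-2.30 ± 0.12), Il7 (-2.97 ± 0.17) and Tnfsf13b (-1.62 ± 0.16) were still higher in PDPN+BP3+ cells, so these genes were ordered PDPN+BP3+, PDPN+BP3-, PDPN-.

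By list, 16 of 21 adventitial markers exceeded their PDPN+BP3+ level and 1, Il33, was below it. Cell cycle genes were lower in 20 of 22 cases, so PDPN+BP3- cells had the lowest signal of the lymph node populations for Tpx2, at 4.37 against 5.70 in PDPN- and 7.67 in PDPN+BP3+ cells. Of 20 contractile genes 7 were lower in PDPN+BP3- than in PDPN+BP3+ cells and 2 higher. Of 16 immediate early genes 10 were higher than in PDPN+BP3+ cells and none lower, and of 16 endothelial genes 8 were higher and 2 lower. The shares of all genes were 7.74% higher and 8.49% lower. The part of cell handling and of endothelial RNA in this comparison was not tested. Among the 1832 genes lower than in PDPN- cells, 433 were also lower than in PDPN+BP3+ cells and 1222 were not called. Fam162b was 2.79 in PDPN+BP3- cells, 6.16 in PDPN+BP3+ cells and 8.57 in PDPN- cells, and Ednrb 3.26, 3.18 and 8.35, so the first graded over the 3 populations and the second set the PDPN- cells apart. Mfap5, a microfibril gene, was high in PDPN+BP3- and PDPN- cells, at 10.77 and 8.55, and 3.29 in PDPN+BP3+ cells. Il7, Timp2, Dkk3, Heyl, Aldh1a2, Ndufa4l2 and Mfap5 were likewise chosen after their values were seen.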

How the data were processed

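Sorted mesenchymal cells were measured on Affymetrix Mouse Gene 1.1 ST arrays. The deposited values are log2 signals made by the authors with RMA (background correction, quantile normalization and probe summary) in Affymetrix Expression Console, per the submitters' processing notes; no versions were given there, and the log2 base was taken from the range of the values, 1.07 to 12.07. RMA makes the distributions of the arrays alike, so differences are relative to the other genes.

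Of 24758 features on 15 arrays, 20844 carried 1 gene symbol, 1735 several and 2179 none. The feature with the highest mean over 15 arrays stood for a gene with several, which left 18718 genes. The 5 populations were fitted together with limma 3.58.1 in R 4.3.3 (Python 3.11.15 for tables), with empirical Bayes moderation and Benjamini-Hochberg adjustment over all genes at 0.05, and residual degrees of freedom of 10. The fit was tested on simulated data. The number of arrays limits the precision.

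The comparison, its markers and the 53 gene lists were chosen with earlier results of these data known. Of 815 list entries 747 were measured. Named genes were the sort antigens, the 20 largest rises and falls without overlap, up to 4 members a direction of each list by adjusted p with members that did not pass, and the 8 largest differences of each sign between lymph node and thymus among genes called in both tests; exceptions are stated. Alternatives were cyclic loess, a filter on low values, an intensity trend, only the compared arrays, row means, the replicate block and leaving out each array.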

Additional observations from a re-analysis of the deposited data

Results flagged for a closer look

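The test of the difference between tissues set apart 1623 genes whose lymph node difference was higher than that of the thymus and 758 whose difference was lower. Among the named genes the higher ones were Cldn1 (5.93), Ddit4l (5.90), Lepr (5.41), Angpt2 (4.52), Cxcl12 (4.32), S100a8 (4.22), Gabrg3 (4.20) and Gdpd2 (4.15), in log2 units. The lower ones were Meox1 (-6.74), Cpxm2 (-6.11), Prkg2 (-5.93), Fam162b (-5.73), Fndc1 (-5.69), Pla1a (-4.39), Masp1 (-4.35) and Serpina1b (-4.23). Single arrays that stand apart were not tested for, because each group has 3.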

How the results depend on the processing

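The 260 genes followed here were all called in the main fit. Sort antigens and named members that did not pass were left out. List members were taken by smallest adjusted p, so the choice itself favoured kept calls. Of 3107 pairs of gene and alternative, 3001 kept their direction and call, 106 in 27 genes lost the call, and 0 reversed. The 16 genes named for the difference between tissues, also chosen as called, kept theirs in all 288 pairs. For the comparison of PDPN+BP3- with PDPN- cells, leaving out 1 array gave 2051 to 2493 genes higher and 1474 to 1828 lower. For the difference between tissues it gave 1097 to 1955 higher and 655 to 918 lower, and for PDPN+BP3- against PDPN+BP3+ cells 1107 to 1265 higher and 1216 to 1467 lower. Cyclic loess moved the difference between tissues to 862 higher and 1215 lower; the cause was not tested.

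Replicates share numbers across populations, but deviations of same-numbered PDPN+BP3- and PDPN- arrays correlated at 0.288, -0.030 and 0.180, and not every array correlated best with its own number. Between PDPN+BP3- and PDPN+BP3+ arrays, same numbers correlated at 0.154, 0.074 and 0.064, and different numbers at -0.102 to 0.027. There each array correlated best with its own number. Whether same-numbered arrays came from 1 experiment was not tested. The numbers were not taken as pairs in the main fit. With the replicate block, 2449 genes were higher and 1815 lower (4264 in all), 1521 and 782 for the difference between tissues (2303), and 1410 and 1569 against PDPN+BP3+ cells (2979).

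With 3 arrays a group, small differences and signals near background are the least certain.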

Other observations

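Array features named for microRNA genes, which read RNA of the locus and not the mature small RNA, were left out of the named genes and are given here after their values were seen. Of 306 such features 10 were higher in PDPN+BP3- cells (3.27%) and 35 lower (11.4%), beside 13.4% and 9.79% of all genes; the share lower is near that of all genes and is no result about these features. Mir143, a microRNA gene of smooth muscle, was 3.53, 3.40 and 3.26 in PDPN+BP3- cells and 6.83, 6.19 and 5.67 in PDPN- cells (-2.83 ± 0.22, adjusted p 4.26e-08 in limma), with no overlap. Its neighbour Mir145a was 2.33, 2.02 and 2.04 against 4.73, 2.56 and 3.89 (-1.60 ± 0.34). Mir99a was higher, at 5.13, 4.87 and 5.62 against 4.13, 2.24 and 2.10 (2.38 ± 0.45), and 1 PDPN- array stood above the other two.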
